A study of Mus musculus with 5 samples.

Results

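The genes described here are 9 genes that break down stored or circulating fat or control that breakdown, measured in mouse dorsal skin. They are the carboxylesterase genes *Ces1d* (named *Ces3* in older annotations) and *Ces1f*, and the lipolysis genes *Pnpla2*, *Pnpla3*, *Lipe*, *Mgll*, *Abhd5*, *G0s2* and *Lpl*. The 2 carboxylesterases were picked from this same comparison because their signal was lower in *Clock* mutant skin, and the other 7 genes were added for what their products do. Every probe set that the platform annotation gives to 1 of these genes alone was included, which gave 19 of 45037 non-control probe sets and 9 of 18193 named genes. Since the signal of *Ces1d* and *Ces1f* served to pick them, their values are given as a description with no test.

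The arrays came from 2 *Clock* mutant mice and 3 wild-type (WT) littermates, 1 Affymetrix array per mouse, all at postnatal day 23 and all labelled telogen, the resting phase of the hair cycle. In its time course of other mice, the study stages that age as early growth phase. The comparison is of skin by *Clock* genotype at 1 age. The strain background in the study's methods is C57BL/6J. The study's supplement writes its *Clock* mutants as Cl/Cl, with both copies mutant, while the labels of these arrays do not give the copies, and no time of day is given for these arrays in the sources used here. The mice were female except *Clock* mutant replicate 1, which was male, so that sex and that array cannot be told apart. The position of the *Clock* probe sets relative to the mutation was not tested, so the arrays do not check the genotype. The labels call the arrays of a group biological replicates.

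Fat is stored as triglyceride in lipid droplets, mostly in the adipocytes below the dermis, and in smaller droplets of sebocytes and keratinocytes. In adipocytes, the lipase ATGL (*Pnpla2*) takes off the first fatty acid, hormone-sensitive lipase (*Lipe*) the second and monoacylglycerol lipase (*Mgll*) the last. CGI-58 (*Abhd5*) switches ATGL on and the small protein G0S2 switches it off, while lipoprotein lipase (*Lpl*) works outside the cell on triglyceride carried in blood. Carboxylesterases are a large family of serine hydrolases with a broad choice of substrates. *Ces1d* encodes triacylglycerol hydrolase, which is known from mouse liver and adipose tissue, and *Ces1f* encodes a close relative. CLOCK works with BMAL1 as an activator that binds the E-box, a short DNA motif.

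The promoters that hold an E-box are shown because CLOCK, the mutated protein, acts through that motif. RefSeq promoter windows (250 bases before to 50 after a start site, assembly GRCm38.p6) were matched for 6 of the 9 genes, in 8 windows. Those of *Ces1d*, *Ces1f* and *Lpl* were not matched. The letters CACGTG (E-box) and CACGTT (E'-box) were searched on both strands. The E-box was found in 2 of the 8 windows, 1 of *Lipe* and 1 of *Mgll*, and in 7.15% of all 32851 windows. The E'-box was found in 1 other window of *Mgll* and in 4.68% of all windows. The windows with a match are printed 5′ to 3′ on the strand of the gene, with the motif in capitals.
*Lipe*, chr7:25395938-25396237, minus strand, E-box starting 155 bases before the start site: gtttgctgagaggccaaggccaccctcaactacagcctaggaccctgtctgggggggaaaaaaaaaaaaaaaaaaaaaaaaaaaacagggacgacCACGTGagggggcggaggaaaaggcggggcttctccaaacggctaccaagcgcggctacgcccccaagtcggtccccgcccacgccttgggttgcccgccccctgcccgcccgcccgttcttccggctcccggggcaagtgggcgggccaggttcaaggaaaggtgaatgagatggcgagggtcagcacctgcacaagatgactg
*Mgll*, chr6:88724162-88724461, plus strand, E-box starting 44 bases before the start site: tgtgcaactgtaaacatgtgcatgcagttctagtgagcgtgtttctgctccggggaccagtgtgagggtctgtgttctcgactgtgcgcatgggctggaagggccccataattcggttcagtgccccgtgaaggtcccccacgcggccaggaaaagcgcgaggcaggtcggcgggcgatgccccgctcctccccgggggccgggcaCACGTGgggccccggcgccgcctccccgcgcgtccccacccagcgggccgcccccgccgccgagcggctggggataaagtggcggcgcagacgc
*Mgll*, chr6:88724454-88724753, plus strand, reverse complement of the E'-box starting 159 bases before the start site: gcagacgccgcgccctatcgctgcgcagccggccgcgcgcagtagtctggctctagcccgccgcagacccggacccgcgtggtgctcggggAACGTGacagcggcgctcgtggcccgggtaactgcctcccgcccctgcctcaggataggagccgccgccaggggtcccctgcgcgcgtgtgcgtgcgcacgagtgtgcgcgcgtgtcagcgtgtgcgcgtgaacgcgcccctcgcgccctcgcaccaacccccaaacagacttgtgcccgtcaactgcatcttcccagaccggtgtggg
A match is a description of the letters and not a binding site.

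The signal of both carboxylesterase genes was lower in *Clock* mutant skin, while none of the lipolysis genes differed detectably. *Ces1d* and *Ces1f* had log2 differences close to each other at their brightest probe sets, -0.68 (SE 0.102) and -0.70 (SE 0.16), *Clock* mutant minus WT. The 12 tested probe sets of the 7 lipolysis genes lay between -0.30 and 0.07. Values are MAS5 intensities on a linear scale as deposited, and differences are on the log2 scale with the standard error (SE) of limma.

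At the brightest *Ces1d* probe set (1449081_at), the intensity was 2420 in *Clock* mutant replicate 1 and 2932 in replicate 2, against 3963, 4525 and 4374 in WT replicates 1, 2 and 3. Both mutant arrays lay below every WT array. The mean was 2676 ± 362 in *Clock* mutant skin (SD, n = 2) and 4287 ± 291 in WT skin (SD, n = 3), a 1.61-fold lower level in the mutants. A further *Ces1d* probe set (1435370_a_at) had 1266 and 1825 in the mutants, against 2113, 2957 and 2401 in WT skin, again without overlap and with a log2 difference of -0.70 (SE 0.173). The dimmest one (1435371_x_at) had 164 and 195 in the mutants, against 238, 188 and 249 in WT skin. Here the groups overlapped, since WT replicate 2 lay below *Clock* mutant replicate 2, and the log2 difference was -0.32 (SE 0.189). In Affymetrix naming, the ending _x_at marks a probe set in which some probes match other genes too.

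*Ces1f* was read by a single probe set (1424266_s_at). It read 166 in *Clock* mutant replicate 1 and 206 in replicate 2, against 294, 314 and 293 in WT replicates 1, 2 and 3, a 1.63-fold lower level in the mutants. Both mutant arrays again lay below all WT arrays. The ending _s_at marks a probe set shared by transcripts of several genes, so that the signal of *Ces1f* cannot be told apart from that of its near relatives. *Ces1d* and *Ces1f* lie in 1 cluster of 8 *Ces1* genes on chromosome 8, with *Ces1e* between them. The array annotation gives *Ces1c*, *Ces1e*, *Ces1g* and *Ces1h* a probe set each, at most 55.6 on any array and below the intensity of 56.7 that served as the filter on dim probe sets. *Ces1a* and *Ces1b* were not analysed here.

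**Figure D1:**
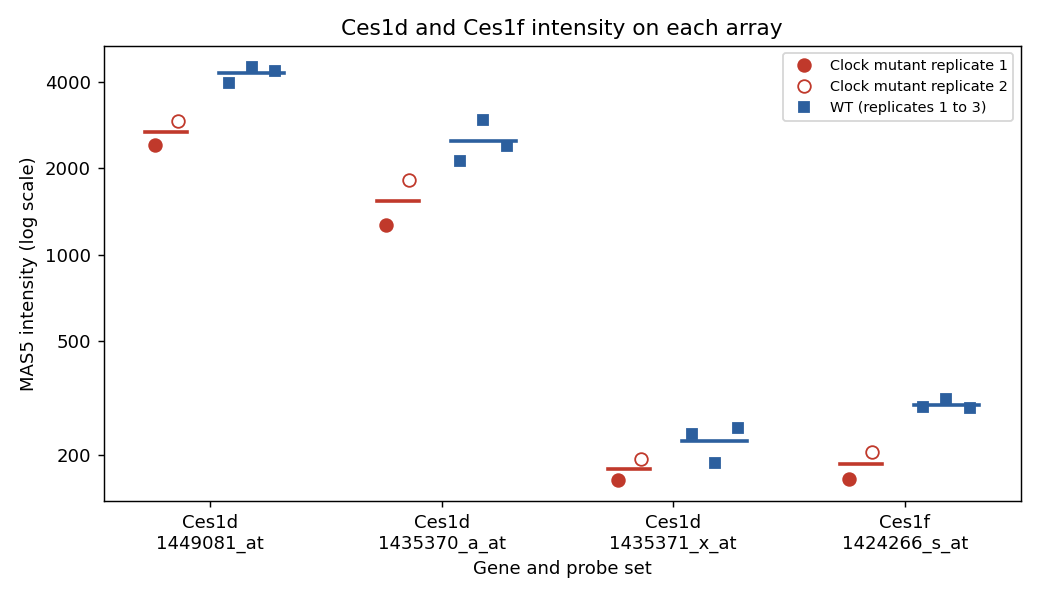
MAS5 intensity (vertical axis, log scale) of the 3 Ces1d probe sets and the Ces1f probe set (horizontal axis) on each of the 5 arrays; red circles are Clock mutant arrays (filled, replicate 1; open, replicate 2), blue squares are WT arrays and short lines mark the mean of each group. Clock mutant replicate 1 is the lowest of the 5 arrays at each probe set, at 2420 for the brightest Ces1d probe set and 166 for Ces1f.

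For the carboxylesterases, both mutant arrays lay below all WT arrays at 3 of 4 probe sets, where 15.1% of all 27022 tested probe sets had that order. These values picked the genes, so nothing is read from that count. Among the tested probe sets, 537 (1.99%) had a difference as low as the brightest *Ces1d* probe set or lower, and 499 (1.85%) one as low as *Ces1f* or lower. The mutant mice differed from each other, with *Clock* mutant replicate 1, the male, lowest at all 4 probe sets. Between the female mice alone, *Clock* mutant replicate 2 against the 3 WT mice, the difference was -0.55 for *Ces1d* and -0.55 for *Ces1f*. It was -0.82 and -0.86 with *Clock* mutant replicate 1 alone. For *Gapdh*, the ratio of 3' to 5' control probe sets, a measure of RNA breakdown, was 1.05 and 0.988 on the mutant arrays, against 0.902, 0.86 and 0.955 on the WT arrays. For *Actb* it was 1.21 and 1.23 on the mutant arrays, against 1.20, 1.14 and 1.19 on the WT arrays, so that both ratios were higher in the mutants without overlap. The part of RNA quality in the differences was not tested.

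Whole skin holds many cell types, and fewer cells of a type cannot be told apart from less RNA per cell. Of 10 adipocyte markers, 8 were measured, none at 0 and the dimmest at 45.4. Their summed intensity was 51759 and 45629 in *Clock* mutant skin, against 50824, 51603 and 56578 in WT skin, so that the groups overlapped. The median log2 difference of these markers was -0.06, and 6 of 8 were negative. *Cidec*, a lipid droplet protein of adipocytes, had 3056 and 2745 in the mutants, against 3249, 3825 and 4130 in WT skin (log2 difference -0.36, adjusted p = 0.339). *Slc2a4*, the insulin-regulated glucose transporter, was at -0.31 (adjusted p = 0.471; -0.54 to -0.094 with single arrays left out). A dimmer *Slc2a4* probe set had 629 and 778 in the mutants, against 1320, 1242 and 969 in WT skin (-0.74, adjusted p = 0.18). Among the 4 probe sets of *Fabp4*, the fatty acid binding protein of adipocytes, the brightest was at -0.18 (adjusted p = 0.416) and another had 2838 and 3279 in the mutants, against 5310, 5699 and 3870 in WT skin (-0.68, adjusted p = 0.209). Over all 12 tested probe sets of these markers, 10 were negative and the median was -0.18. Both mutant arrays lay below all WT arrays at 5 of 12 (15.1% of all tested probe sets), by limma 0 passed an adjusted p of 0.05 and 5 had an unadjusted p under 0.05 (10.8% of all tested). These are not 12 separate markers, since *Fabp4* and *Slc2a4* count more than once. With each gene at its brightest probe set, both mutant arrays lay below all WT arrays for 2 of 8 markers. By limma, 2 of 8 had an unadjusted p under 0.05. Some marker probe sets, of *Fabp4* and *Slc2a4*, were lower in the mutants by about as much as *Ces1d* and *Ces1f*. The other measured markers lay nearer 0, all with overlap of the groups. *Adipoq* was at -0.04, *Cebpa* at -0.05, *Retn* at -0.06, *Lep* at 0.12 and *Pparg* at 0.14. Relative to the mean of the 8 markers at their brightest probe sets on the same array, *Ces1d* was at -0.59 and *Ces1f* at -0.61. On that scale, minus the WT mean, *Clock* mutant replicate 1 was at -0.91 for *Ces1d* and -0.95 for *Ces1f*. *Clock* mutant replicate 2 was nearer the WT arrays, at -0.27 for both, where the lowest WT array was at -0.08 and -0.15. Relative to the mean of all 12 marker probe sets, *Ces1d* was at -0.46 and *Ces1f* at -0.47. On both scales the mutant arrays lay below all WT arrays at these probe sets. The values picked the genes, and the share of all probe sets with that order was not computed on these scales. Nothing is read from the order. The other *Ces1d* probe sets overlapped on both scales. These comparisons were added after the values were seen, and the part of adipocytes in the carboxylesterase values was not tested further.

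Other cell types were read in the same way. The sums of 5 sebaceous gland markers were 20702 and 24815 in *Clock* mutant skin, against 22556 to 24857 in WT skin. Their median log2 difference was -0.11 and 5 of 5 were negative, as were 46.4% of all tested genes. The groups overlapped at each of them. *Clock* mutant replicate 1, which has the lowest *Ces1d* and *Ces1f* signal, was the lowest array at each of them. The part of sebaceous glands in the carboxylesterase values was not tested. Of the marker lists, that of growing hair differed most, with a median of 2.09 over 6 of 8 genes, 0 of which passed an adjusted p of 0.05 and 6 an unadjusted p of 0.05 by limma (0.0888% and 10.8% of all tested probe sets). Its summed intensity was 7220 in *Clock* mutant replicate 1 and 1338 in replicate 2, against 458 to 1366 in WT skin. The array with the high hair sum is also the one with the lowest *Ces1d* and *Ces1f* signal. The part of these hair cells in the carboxylesterase values was not tested. Epidermal, muscle, fibroblast and macrophage marker lists had medians between -0.06 and 0.04. Of 5 epidermal markers, *Krt1* (0.31) and *Krt5* (0.16) lay above all WT arrays and 0 below them. Of 6 muscle markers, *Myh4* (-0.11) lay below all WT arrays and 0 above them. A dimmer *Myh4* probe set had 5486 and 5322 in the mutants, against 7444, 9248 and 8012 in WT skin (-0.60, adjusted p = 0.0778 by limma). Of all tested probe sets, 15.1% lay below and 12.8% above in this way.

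The lipolysis genes were tested in the fit across all probe sets. By limma, 0 of 12 tested probe sets passed an adjusted p of 0.05 and 0 had an unadjusted p under 0.05. Of all tested probe sets, 0.0888% passed the adjusted p (0.074% lower and 0.0148% higher) and 10.8% had an unadjusted p under 0.05. The adjusted p ranged between 0.644 and 0.993. Both mutant arrays lay below all WT arrays at 0 of 12 probe sets (15.1% of all tested) and above them at 1 of 12 (12.8% of all tested). With each gene read at its brightest probe set, the median difference was -0.08 over the 7 genes, against 0.02 over all 12955 tested genes read in the same way. Of the 7 genes 6 were negative, as were 46.4% of all tested genes. Median centring of the arrays, which moves every difference up alike, put this median at 0.011 and that of all tested probe sets at 0.07.

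*Pnpla2*, which encodes the lipase ATGL of the first step, had 5805 and 5581 in *Clock* mutant skin, against 5516, 6379 and 6937 in WT skin. The mutant arrays lay within the WT range. The log2 difference was -0.13 (95% interval -0.36 to 0.09, adjusted p = 0.644). A dimmer probe set had 71.2 and 61.8 in the mutants, against 45.7, 70.8 and 88.0 in WT skin, with a wide interval of -0.74 to 0.76. *Pnpla3*, a patatin family lipase of lipid droplets, had 621 and 619 in the mutants, against 526, 661 and 623 in WT skin, within the WT range (0.05, 95% interval -0.24 to 0.34, adjusted p = 0.922).

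The proteins that control ATGL differed in how well they were measured. *Abhd5*, its activator, was the most even gene of the group. It had 1978 and 1927 in *Clock* mutant skin, against 1955, 2046 and 2018 in WT skin, with a log2 difference of -0.04 (95% interval -0.22 to 0.14, adjusted p = 0.891). At a further *Abhd5* probe set, with 1741 and 1656 in the mutants, against 1608, 1619 and 1629 in WT skin, the mutant arrays lay above all WT arrays by a small margin (0.07, adjusted p = 0.79). *G0s2*, its inhibitor, spread most. It had 730 and 357 in the mutants, against 497, 645 and 766 in WT skin, so that *Clock* mutant replicate 2 was the lowest array and replicate 1 the second highest. The difference was -0.30 (95% interval -0.93 to 0.34, adjusted p = 0.732), and it was 0.22 without *Clock* mutant replicate 2 and -0.81 without *Clock* mutant replicate 1.

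*Lipe*, hormone-sensitive lipase, has a promoter window with an E-box and another window with no match. It had 1305 and 1069 in *Clock* mutant skin, against 1138, 1283 and 1438 in WT skin. The groups overlapped, and the difference was -0.12 (95% interval -0.41 to 0.18, adjusted p = 0.771). *Mgll*, monoacylglycerol lipase, which also cleaves the endocannabinoid 2-AG, was read by 3 bright probe sets. At the brightest it had 5739 and 6843 in the mutants, against 8208, 5683 and 6193 in WT skin (-0.08, 95% interval -0.41 to 0.25, adjusted p = 0.881). This probe set has the ending _s_at, and the others differed by 0.07 and -0.14. WT replicate 1 was the highest array at all 3 of them.

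*Lpl*, the lipase of circulating triglyceride, had 14549 and 12433 in *Clock* mutant skin, against 13685, 14004 and 14906 in WT skin. The difference was -0.08 (95% interval -0.26 to 0.11, adjusted p = 0.758), and it was -0.14 at the other probe set (adjusted p = 0.718). The remaining 3 of the 19 probe sets, 1 each of *Lipe*, *Mgll* and *Abhd5*, were below the filter. They lay between 5.12 and 37.0 on all arrays and were not tested.

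**Figure D2:**
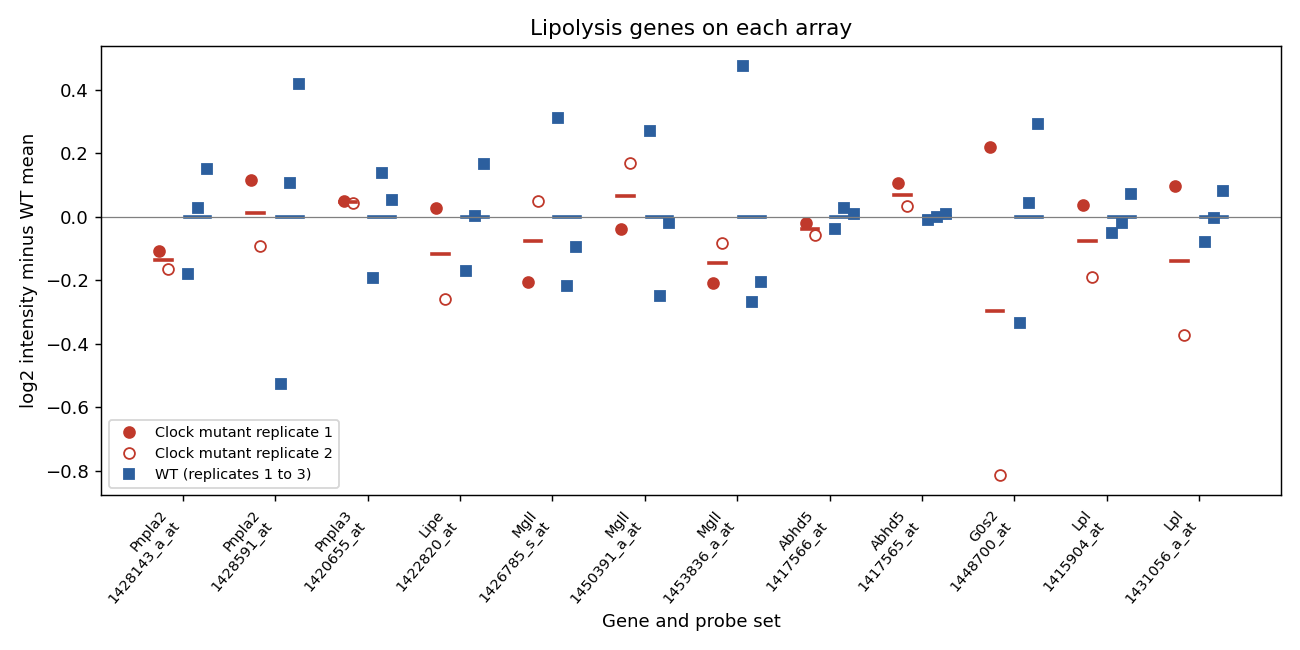
log2 intensity minus the WT mean (vertical axis) at the 12 tested probe sets of the 7 lipolysis genes (horizontal axis); red circles are Clock mutant arrays (filled, replicate 1; open, replicate 2), blue squares are WT arrays and short lines mark the mean of each group. G0s2 shows the widest spread, with Clock mutant replicate 2 at -0.81 and Clock mutant replicate 1 at 0.22, and the brighter Abhd5 probe set is among the tightest.

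**Figure D3:**
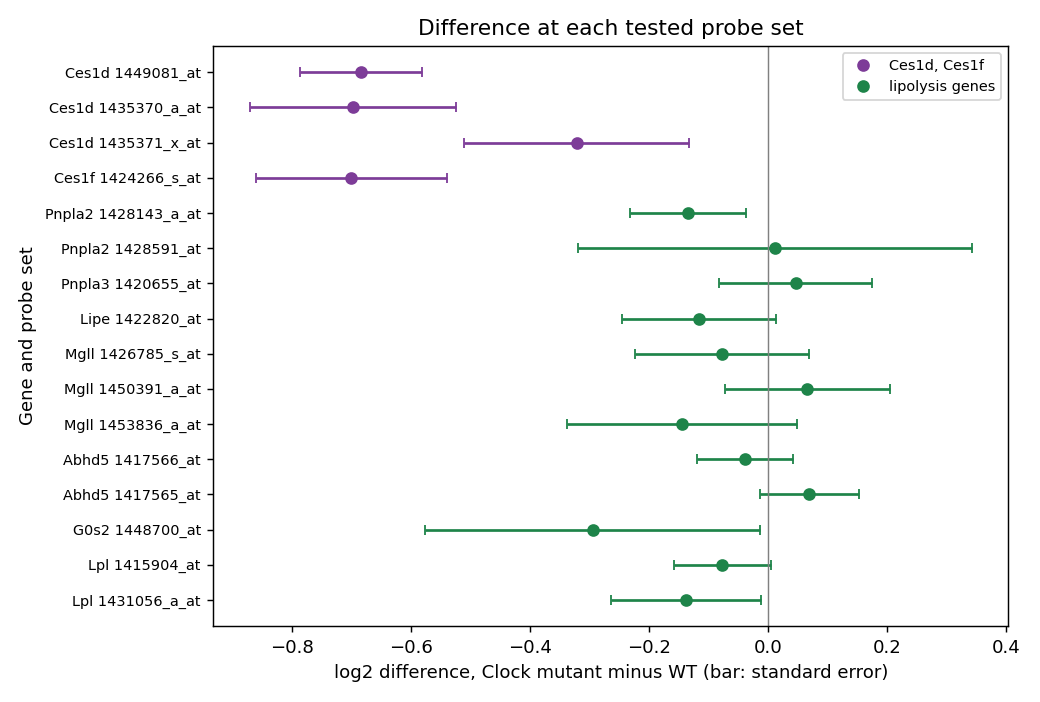
log2 difference, Clock mutant minus WT (horizontal axis, bars are the standard error of limma), at each of the 16 tested probe sets (vertical axis). The carboxylesterase probe sets (purple) lie between -0.70 and -0.32, and the lipolysis probe sets (green) between -0.30 and 0.07.

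The other genes of the pathway were read from 7 lists, of which 78 of 106 genes were measured. By limma with adjustment over the whole array, 0 were called in either direction, and 9 of 78 (11.5%) had an unadjusted p under 0.05, against 10.8% of all tested probe sets. Their median was -0.05. For 14 of the 78 genes both mutant arrays lay below all WT arrays, and for 3 above them (15.1% and 12.8% of all tested probe sets). Of 17 other carboxylesterase genes, 11 had a probe set of their own and 4 were above the filter, with a median of -0.03. Among them *Ces2g* had 1400 and 1436 in *Clock* mutant skin, against 1242, 1080 and 1063 in WT skin, above all WT arrays (0.33, adjusted p = 0.339). *Ces5a* was at -0.25 and *Ces4a* at -0.07, both with overlap of the groups.

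Other lipases had a median of -0.09 over 16 genes, 11 of them negative, as were 46.4% of all tested genes. At 6 of the 16 both mutant arrays lay below all WT arrays, and at 0 above them (15.1% and 12.8% of all tested probe sets). *Lipn*, a lipase of the upper epidermis, had 404 and 166 in the mutants, against 432, 494 and 446 in WT skin (-0.82, adjusted p = 0.399). The low value came from *Clock* mutant replicate 2. The difference was -1.46 without *Clock* mutant replicate 1 and -0.18 without *Clock* mutant replicate 2, each resting on 1 mutant array. *Pnpla8*, a calcium-independent phospholipase, was at -0.16 (adjusted p = 0.482) and *Pnpla7*, a lysophospholipase, at -0.23 (adjusted p = 0.501).

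Lipid droplet proteins had a median of -0.03 over 11 genes and held genes far from 0 in both directions. *Plin5*, a droplet coat protein of oxidative tissues, had 528 and 464 in *Clock* mutant skin, against 254, 339 and 369 in WT skin (0.64, adjusted p = 0.301). A further *Plin5* probe set was at 0.61 (adjusted p = 0.376). *Hilpda*, a droplet protein that inhibits ATGL, had 344 and 289 in the mutants, against 415, 659 and 436 in WT skin (-0.64, adjusted p = 0.355). *Cidec* is given with the adipocyte markers above. At these 3 of 11 genes the groups did not overlap, 2 with the mutants lower and 1 higher, where 15.1% and 12.8% of all tested probe sets had such an order.

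Receptors and signalling proteins that switch lipolysis on or off had a median of -0.01 over 18 measured genes, and 0 had an unadjusted p under 0.05. The genes with the smallest p were *Hcar2*, a receptor that restrains lipolysis (0.28, adjusted p = 0.55), *Irs2*, an insulin signalling adaptor (-0.72, adjusted p = 0.568), and *Prkg1*, a cGMP-dependent kinase (0.19, adjusted p = 0.622). *Irs2* rested on *Clock* mutant replicate 1, with 39.5 and 102.3 in the mutants, against 88.0, 154.1 and 83.8 in WT skin, and was at -0.028 without that array and -1.40 without *Clock* mutant replicate 2. The beta-adrenergic receptor genes were not analysed here. Proteins that fold, carry or inhibit lipoprotein lipase had a median of -0.06 over 12 genes. *Lrp1*, an uptake receptor for lipoprotein remnants, had 4062 and 4394 in the mutants, against 4851, 4839 and 4887 in WT skin (-0.20, adjusted p = 0.384). *Angptl4*, an inhibitor of lipoprotein lipase, was at -0.19 (adjusted p = 0.528) and *Lmf2*, a relative of its folding factor, at -0.25 (adjusted p = 0.584).

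Carriers of fatty acids and glycerol had a median of -0.12 over 6 genes, 5 of them negative, as were 46.4% of all tested genes. At 3 of the 6 both mutant arrays lay below all WT arrays, and at 0 above them (15.1% and 12.8% of all tested probe sets). *Cd36*, a fatty acid transporter, had 5676 and 5043 in *Clock* mutant skin, against 5959, 6270 and 6576 in WT skin (-0.23, adjusted p = 0.383). Its other probe sets were at -0.31 and 0.09. *Fabp4* is given with the adipocyte markers above. *Aqp7*, a glycerol channel, was at -0.25 (adjusted p = 0.7) and at 0.15 by its other probe set (adjusted p = 0.843). Enzymes of triglyceride synthesis had a median of 0.00041 over 11 genes. *Agpat3*, an acyltransferase, had the smallest adjusted p of all 7 lists, with 2753 and 2849 in the mutants, against 2186, 2276 and 2108 in WT skin (0.36, SE 0.0803, adjusted p = 0.216). Its other 3 probe sets were at 0.23, 0.51 and 0.61. *Dgat1*, which adds the last fatty acid, was at -0.19 (adjusted p = 0.477) and *Gpat3*, which adds the first, at -0.35 (adjusted p = 0.548).

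**Figure D4:**
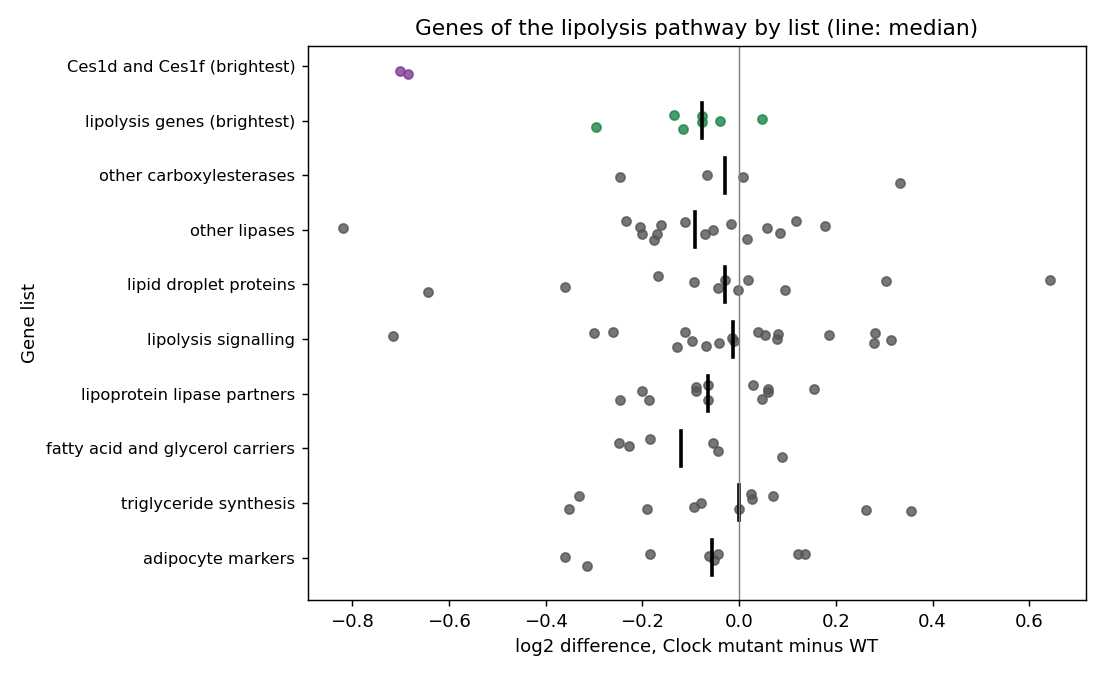
log2 difference, Clock mutant minus WT (horizontal axis), of each measured gene in the pathway lists and the adipocyte markers (vertical axis), with Ces1d and Ces1f in purple and the 7 lipolysis genes in green; black lines are list medians. List medians lie between -0.12 and 0.00041, while Ces1d and Ces1f lie at -0.68 and -0.70.

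The genes whose log2 intensity followed *Ces1d* most closely over the 5 arrays were *Kdm7a*, *Mtus1*, *Rhpn2*, *Nudt6* and *Zfp54*, with a Pearson r between 0.996 and 0.999. Those closest to *Ces1f* were *Nr4a1*, *Dyrk1b*, *Rab8b*, *Cry2* and *Smarca2*, with r between 0.998 and 1.00. Of 12954 other genes, 190 had r above 0.95 with *Ces1d* and 168 with *Ces1f*. The points share the difference between the genotypes, and r is given as a description only.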

How the data were processed

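Total RNA (11 µg) from the dorsal skin of each mouse was labelled and hybridized to 1 Affymetrix array. The deposited values are MAS5 signal intensities on a linear scale, scaled per array (the 2% trimmed mean was 500.0 on each); scanner settings are not given in the sources used here. Median intensities were 105.8 to 117.9, and arrays correlated at 0.950 to 0.960. Precision is limited by having 2 and 3 arrays per group. Values under 1 were set to 1 and log2 was taken. Of 45101 probe sets, 64 controls were left out and 18015 with a mean under the 40th percentile (intensity 56.7) were not tested. Differences were fitted by limma 3.58.1 (R 4.3.3; lmFit, then eBayes with a trend; two-sided) and p-values adjusted by Benjamini-Hochberg over 27022 probe sets. A gene stands for its brightest tested probe set with 1 symbol (34945 probe sets had 1 symbol, 932 several and 9160 none here). The rule names all members and the 3 genes of smallest p per list; marker lists are mostly given as groups. Members and lists were chosen with earlier results of these data known. Alternatives were other scalings, filters, an offset of 32, other priors, a replicate block, averaging the probe sets of *Ces1d* and leaving out each array.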

Additional observations from a re-analysis of the deposited data

How the results depend on the processing

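The differences of *Ces1d* and *Ces1f* kept their sign in all alternatives. They lay between -0.82 and -0.55 for *Ces1d* and between -0.86 and -0.55 for *Ces1f* when single arrays were left out, and were -0.46 and -0.47 relative to all adipocyte marker probe sets, an alternative added after seeing the data. The number of lipolysis probe sets called was 0 in every alternative. The number of probe sets called over the whole array was 24, and it was 10 with no filter, 0 without a trend in the prior (2631 at an unadjusted p under 0.05), 106 with the replicate number as a block and 0 to 239 when single arrays were left out. It was 0 without WT replicate 2 or WT replicate 3 (1570 and 2193 at an unadjusted p under 0.05) and 239 without *Clock* mutant replicate 2, and the cause was not tested. The replicate block gave -0.67 for *Ces1d* and -0.72 for *Ces1f*. These are the same differences as without WT replicate 3, since no mutant array shares its number and the block takes it out of the difference. The labels do not say that a replicate number is shared between groups, and the deviations of same-numbered arrays correlated at 0.0078 and 0.0986.

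Median centring moved all differences up alike, the median of all tested probe sets to 0.07, against -0.02, and taking values relative to adipocyte markers (added after seeing the data) adds a constant too. By construction such a shift turns the sign of values just below 0. The median of the lipolysis genes was 0.011 after centring, 0.018 relative to the markers at their brightest probe sets and 0.15 relative to all their probe sets, and -0.16 to 0.028 when single arrays were left out. With centring, values near 0 turned positive for *Mgll* at its brightest probe set (0.011), *Abhd5* (0.049), *Lpl* (0.011) and *Ces4a* (0.022), and log2 of the intensity plus 32 that of the dimmer *Pnpla2* probe set (-0.0033). Leaving out single arrays gave -0.25 to 0.22 for that *Pnpla2* probe set, -0.049 to 0.12 for *Pnpla3*, -0.26 to 0.028 for *Lipe* and -0.81 to 0.22 for *G0s2*. It gave -0.20 to 0.079, -0.060 to 0.20 and -0.28 to 0.092 for the 3 *Mgll* probe sets, -0.19 to 0.036 and -0.37 to 0.10 for those of *Lpl*, -0.23 to 0.10 for *Ces4a* and -0.70 to 0.0013 for *Gpat3*. With a *Clock* mutant array left out, the other one is assumed to vary like the WT arrays. MAS5 signal near the filter is noisy, which limits *Ces1f* and the dimmer probe sets.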
